A study of Mus musculus with 4 samples.

Results

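The X-linked lymphocyte-regulated (Xlr) family was represented on this array by 3 transcripts that the probe names identify, Xlr (NM_011725.2), Xlr3c (NM_011727.1) and Xlr4b (NM_021365.1). They were selected by these RefSeq names, and they are 3 of the 41819 systematic names on the array, each with 1 probe spotted once per array. The table of RefSeq genes of the mouse assembly GRCm38.p6 gave the symbols for all 3. Total RNA of thymus and brain had been hybridised to 4 Agilent arrays of 2 colours, with 2 biological replicates of each tissue. The mice were adults of the inbred strain C57BL/6J, with no genetic change or treatment stated. Thymus 1 and brain 1 carried the dye Cy3, and thymus 2 and brain 2 carried Cy5. The other channel of each array held Universal Mouse Reference RNA, a pool from 11 mouse cell lines according to the deposited readme, so each probe was read in 3 RNA sources. Neither the sex nor the number of animals per sample was given, and both organs hold many cell types.

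The Xlr genes encode small nuclear proteins related to SYCP3, a structural protein of the meiotic chromosome axis. The founding gene was described as regulated in lymphocytes of the mouse, and other members are active in male germ cells. In mouse brain, Xlr3b, Xlr4b and Xlr4c are known for expression mainly from the X chromosome inherited from the mother. Members arose by duplication, and near-identical copies lie side by side on the X chromosome.

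In the RefSeq table, 16 genes had a symbol starting with Xlr, all on chromosome X, and 10 of them were protein coding. Xlr4b and Xlr3c lay in 1 cluster of 13 genes that runs from Xlr4a to Xlr5c, where Xlr4b stood between Xlr3b and F8a, and Xlr3c between Xlr4c and Xlr5c. Xlr lay apart from this cluster, with 275 genes in between. The promoter windows of the 3 members are shown because they shared a pair of short motifs. In signal, described below, Xlr4b and Xlr3c differed, and Xlr was mostly near background in tissue. Each window holds 300 bases of RefSeq sequence of the build GRCm38.p6, from 250 bases before the annotated start to 50 bases after it. Capitals mark the motifs GCATGNGCA and CCAAT, the latter found 3 times in Xlr3c.
Xlr4b, chrX:73214083-73214382, plus strand: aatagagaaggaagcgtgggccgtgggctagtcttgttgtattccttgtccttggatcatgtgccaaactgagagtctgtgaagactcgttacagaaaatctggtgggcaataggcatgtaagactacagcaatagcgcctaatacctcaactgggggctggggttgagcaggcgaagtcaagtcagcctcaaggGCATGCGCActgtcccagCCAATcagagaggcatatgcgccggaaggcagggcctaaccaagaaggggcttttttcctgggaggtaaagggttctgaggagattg
Xlr3c, chrX:73265341-73265640, minus strand: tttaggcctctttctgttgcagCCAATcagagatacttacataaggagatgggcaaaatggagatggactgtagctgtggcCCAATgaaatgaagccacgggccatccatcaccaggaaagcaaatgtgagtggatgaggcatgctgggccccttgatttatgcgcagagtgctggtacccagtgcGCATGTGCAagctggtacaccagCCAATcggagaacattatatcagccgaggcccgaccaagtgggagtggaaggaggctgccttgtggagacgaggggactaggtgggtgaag
Xlr, chrX:53797657-53797956, minus strand: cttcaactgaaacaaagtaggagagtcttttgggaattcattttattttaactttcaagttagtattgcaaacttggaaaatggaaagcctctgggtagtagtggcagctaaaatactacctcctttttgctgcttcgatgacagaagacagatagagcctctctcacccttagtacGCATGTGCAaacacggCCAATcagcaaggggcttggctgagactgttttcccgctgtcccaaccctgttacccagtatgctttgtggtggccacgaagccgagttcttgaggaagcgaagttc

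The motifs were searched on both strands and do not overlap each other, and they were chosen after the sequences had been read. GCATGNGCA began 55 bases before the start in Xlr4b, 64 bases in Xlr3c and 73 bases in Xlr. A CCAAT followed it on the same strand in each, with 9, 14 and 7 bases in between. Of 32841 windows of this length, 37.4% held CCAAT, 2.48% held GCATGNGCA and 0.892% held both. In the family as listed here, 13 genes had a window in the table, of which 11 held CCAAT, 8 held GCATGNGCA and 7 held both. The 7 include the 3 members and near-identical copies described below, so they are not independent matches. The arrangement was not kept in all copies. Xlr3b, a copy of Xlr3c, held CCAAT but not GCATGNGCA. In Xlr3a, GCATGNGCA began at the annotated start and the next CCAAT 23 bases after it. The windows of Xlr4b, Xlr3c and Xlr held 8, 7 and 7 CG dinucleotides, where the median of all windows was 7. TATAAA, found in 13.6% of all windows, did not occur in the 3. These matches describe the letters of the windows only.

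**Figure D1:**
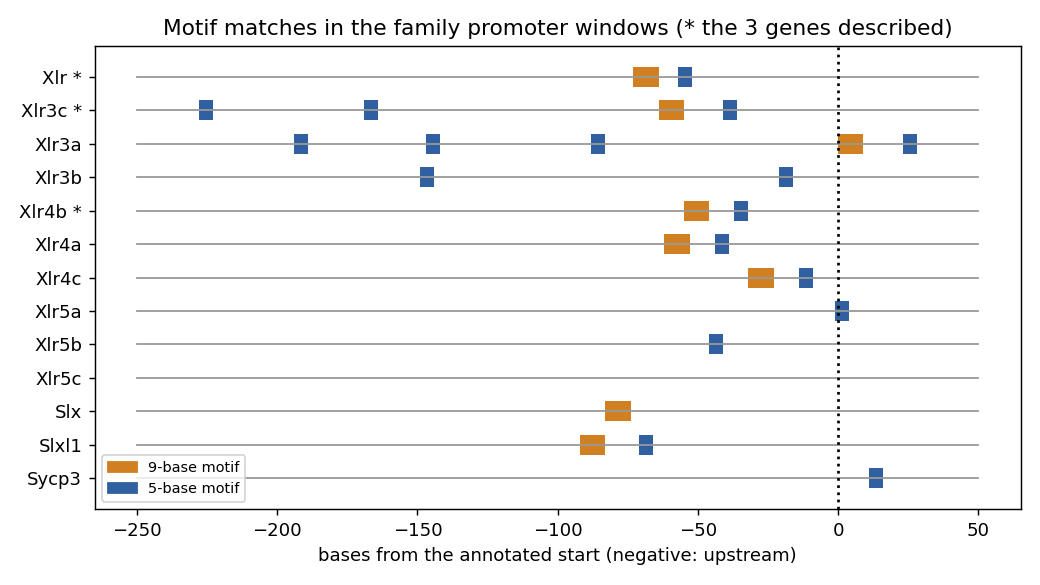
Map of 13 family promoter windows, with the position of each motif match in bases from the annotated start on the x axis. Orange blocks are the 9-base motif GCATGNGCA and blue blocks the 5-base motif CCAAT. In Xlr, Xlr3c and Xlr4b the orange block lies 55 to 73 bases before the start, with a blue block next to it.

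Copies within a subfamily were nearly identical in these windows. Xlr4b matched Xlr4a at 98.6% of 292 aligned bases and Xlr4c at 98.9% of 277. Xlr3c matched Xlr3b at 98.1% of 269 and Xlr3a at 95.4% of 219. Xlr was closest to Slx, a gene of post-meiotic male germ cells in mouse, at 69.4% of 255 bases, and to Slxl1 at 68.8% of 253. The 3 members aligned with each other over at most 22 bases, so no identity is given. The probe sequences were not used here. Copies that share transcript sequence may also bind these probes, and each value below is therefore that of the probe named for the gene.

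The signal unit is the processed signal of the scanner software, which is corrected for background and dye. That software flags a probe as well above background or not. The flag was carried by 60.2% and 97.3% of probes in thymus samples 1 and 2 and by 55.5% and 84.1% in the brain samples. Both Cy5 samples, thymus 2 and brain 2, thus had higher shares than both Cy3 samples, with thymus 2 the highest. In the reference channels the shares were 57.3% and 86.1% on thymus arrays 1 and 2 and 68.6% and 61% on the brain arrays. The thymus 2 array was thus the highest in both channels. Both thymus arrays were scanned on 1 day and the brain arrays on 2 other days, and no day held both tissues. Of 46 cell type markers listed for a check of the tissues, 5 were named on the array, none of them among the 11 of thymocytes or the 5 of neurons. The thymus label could therefore not be checked by its own cells. Sox9, a transcription factor of astrocytes and neural progenitors, was higher in brain by 3.39 log2 units (SE 0.41, limma adjusted p 0.000866). Both brain samples but only 1 of the 2 thymus samples were well above background for Sox9, so the size of this difference is uncertain. None of the 24 readings of the 3 probes was saturated or marked as an outlier.

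Xlr4b, a member of the Xlr4 subfamily, gave a strong signal in thymus and a weak one in brain. Its processed signal was 6426 in thymus 1 and 6795 in thymus 2, with scanner error estimates of 644 and 679.5. In brain it was 180.4 in sample 1 and 182 in sample 2, with error estimates of 52.9 and 21.1. Both thymus samples thus lay far above both brain samples, and samples of a tissue lay within the scanner error of each other. Brain 1 was not well above background for Xlr4b, although its signal passed the software's test of being positive and significant, and brain 2 passed both. The median negative-control signal was 45.8 in brain 1 and 13.4 in brain 2. The reference RNA gave 3121 and 3154 on the thymus arrays, below the tissue, and 2733 and 2667 on the brain arrays, above it.

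**Figure D2:**
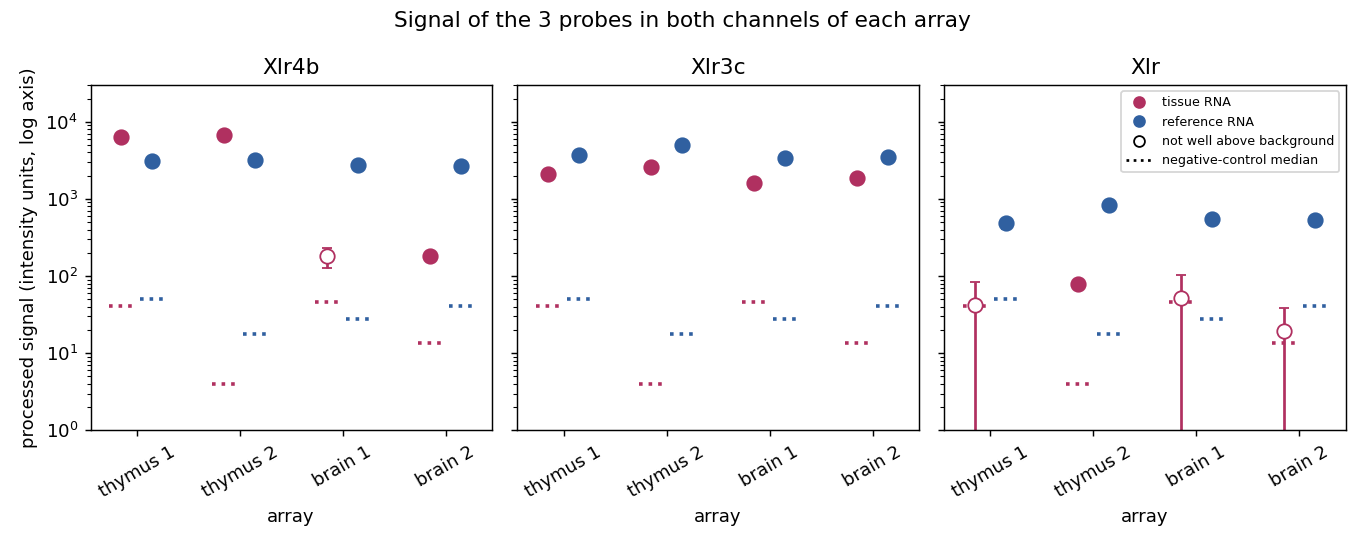
Processed signal in intensity units (log axis) of the 3 probes on each array, for tissue RNA in red and reference RNA in blue, with bars for the scanner error estimate and dotted lines for the negative-control median. Bars that reach 0 run to the lower edge. Xlr4b in brain, near 180.4, lies far below thymus, Xlr3c differs little between arrays, and open points mark the readings that were not well above background, 3 of them for Xlr.

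Xlr3c, a member of the Xlr3 subfamily, gave similar signals in both tissues. Thymus gave a processed signal of 2096 in sample 1 and 2564 in sample 2, and brain gave 1611 and 1876. Both thymus signals were above both brain signals, but these values are not scaled between arrays. The reference RNA gave 3758 and 4950.3 on the thymus arrays and 3391 and 3467 on the brain arrays, and was the brighter channel on all 4. All 8 readings of Xlr3c were well above background, as for 48.2% of names on the array. The Xlr4b pattern, with both thymus samples, 1 brain sample and all reference channels above it, was shared by 4.63%.

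Xlr, the gene that gave the family its name, was well above background on every array in the reference RNA only. The reference signal was 483 and 843 on the thymus arrays and 545 and 527 on the brain arrays, well above background on all 4. The tissue readings were far lower, at 41.7 and 79.7 in thymus samples 1 and 2 and 51.3 and 19.2 in the brain samples. Of these, thymus 2 alone was well above background, and the other 3 were not positive and significant either. The error estimates of those 3 readings were 41.8, 51.4 and 19.2, as large as the signals, and their signals after background subtraction were -18.6, -17.5 and -5.89. Their positive processed signals are therefore not measured levels of RNA. Of 314 negative-control spots, the Xlr signal exceeded 93.3% and 99.4% in thymus samples 1 and 2, and 92.7% and 86.6% in the brain samples. In the reference channels it exceeded at least 99% of them. The median negative-control signal was 41.5 in thymus 1, 45.8 in brain 1 and 13.4 in brain 2, near the Xlr signals there, and 3.98 in thymus 2. For the 3 readings without the flag, these percentages therefore do not show signal above background. A reading well above background in thymus 2 as the only tissue sample was found at 12.5% of all names on the array, and together with reference signal on all 4 arrays at 40 names, or 0.0957%.

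Brain and thymus were compared on log2 signals scaled to the 75th percentile of each sample, where 0 is that percentile, with limma across 27211 features. In this measure Xlr4b had a mean of 2.02 ± 0.22 in thymus and of -2.92 ± 0.07 in brain (SD, n = 2 each), so brain was lower. The brain minus thymus difference was -4.93 (SE 0.26, 95% interval -5.55 to -4.31), which is 30.5-fold, and its limma adjusted p was 4.81e-05. It ranked 112 of 27211 from the largest difference towards thymus. Xlr4b was kept for this test only through thymus, where it is high, since the flag was required in both samples of 1 tissue. With no filter on dim probes its limma adjusted p was 0.00584. Xlr3c was at 0.35 ± 0.08 in brain and 0.50 ± 0.07 in thymus (SD, n = 2 each). Its difference was -0.16 (SE 0.25, 95% interval -0.75 to 0.44, limma adjusted p 0.708), so the interval holds 0 and leaves room for a change of up to 0.75 log2 units towards thymus. Xlr was not tested, since neither tissue had the flag in both of its samples.

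Of the 2 members tested, 1 was called, in the direction of thymus, where 16.8% of all features were called in that direction and 33.1% in either. Scaled signals of the tissues did not overlap for Xlr4b or for Xlr3c, with thymus the higher in both. Over the array this held for 65.1% of features in either direction and for 36.4% with thymus higher, so the Xlr3c order is what many features show. The median difference over all features was -0.11 log2 units, close to that of Xlr3c. Lower RNA per cell and fewer cells that hold the RNA cannot be told apart in such tissue samples. For Xlr4b, 1 brain sample was not well above background, and with normexp background correction the difference was -4.05.

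**Figure D3:**
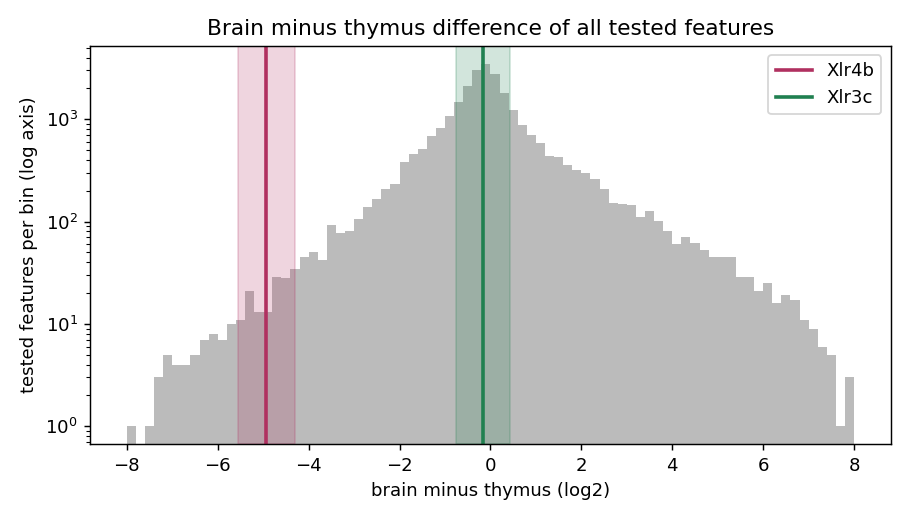
Histogram of the brain minus thymus difference in log2 units over the 27211 tested features, with the number per bin on a log axis. Vertical lines mark Xlr4b at -4.93 and Xlr3c at -0.16, with their 95% intervals shaded, and Xlr4b lies in the left tail.

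Samples labelled with the same dye gave the same picture. Between the Cy3 samples, Xlr4b differed by -5.04 log2 units, brain minus thymus, and between the Cy5 samples by -4.83, or 32.8-fold and 28.3-fold in size. For Xlr3c these differences were -0.26 and -0.05. For Xlr they were 0.41 and -1.65, with opposite signs, and the thymus 2 reading was the only one of these 4 well above background. Tissue and scan day cannot be told apart in the tissue channels. The reference RNA, the same material on all arrays and scanned with them, was compared between the arrays in the same way. Reference signal on brain arrays minus that on thymus arrays was 0.06 for Xlr4b (SE 0.22) and -0.06 for Xlr3c (SE 0.18), each with a limma adjusted p of 1. Over all features limma made 0 calls in this check (0%), where an unadjusted p under 0.05 was reached by 1053 (3.87%). The scaled reference signal of the 4 arrays spanned 0.40 log2 units for Xlr4b, 0.10 for Xlr3c and 0.39 for Xlr. These spans hold technical variation only and not that between tissue samples.

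The members were also set against the reference RNA on the same array. Ratios are those of the scanner software, turned to tissue over reference, and were tested with limma against a log2 ratio of 0 over 27706 features. In thymus, Xlr4b was above the reference, with log2 ratios of 1.04 on array 1 and 1.11 on array 2, or 2.06-fold and 2.15-fold. In brain it was below the reference on both arrays, at -3.92 and -3.88. The mean was 1.07 in thymus (SE 0.13, limma adjusted p 0.00372) and -3.90 in brain (SE 0.13, limma adjusted p 5.3e-05). With normexp and loess the brain mean was -2.81, still called. Xlr4b thus lay on opposite sides of the cell-line pool in the tissues, and the difference of the ratios was -4.97 (SE 0.19, limma adjusted p 0.000299). It was the only member called in this comparison, where 17% of features were called lower in brain, 16.6% higher and 33.6% in either direction.

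Xlr3c was below the reference in both tissues. The log2 ratios were -0.84 and -0.95 in thymus and -1.07 and -0.89 in brain, and those of the tissues overlapped. The mean was -0.90 in thymus (SE 0.14, limma adjusted p 0.00786) and -0.98 in brain (SE 0.14, limma adjusted p 0.00289). These are 1.86-fold and 1.97-fold in size. The difference of the ratios was -0.08 (95% interval -0.58 to 0.41, limma adjusted p 0.797).

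Xlr was far below the reference. In brain, where neither sample was well above background, a bound averaged over the brain arrays put the reference 2.62-fold higher. The bound itself was not tested, and the limma adjusted p of 0.000342 belongs to the fit of the scanner ratio, which uses these background readings. The bound sets the reference signal against the lowest signal well above background on each brain array, or the probe's own where higher, after loess and quantile normalization of the arrays. That lowest signal need not be the limit for this probe, so the bound is approximate. In thymus the log2 ratio was -3.53 on array 1 and -3.40 on array 2, with only thymus 2 well above background. The thymus mean was -3.47 (SE 0.32, limma adjusted p 0.00154). With normexp and loess, which change background correction and dye normalization together, it was -2.34.

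All 3 members were called lower than the reference in brain, where 23.5% of all features were called lower, 21.2% higher and 44.7% in either direction. In thymus 2 members were called lower and 1 higher, where 13.8% and 12.8% of features were, or 26.6% in all. Xlr, called lower in both tissues, was kept for these tests only through its reference signal. Its readings in brain and in thymus 1 were not well above background. Its calls therefore say little beyond the reference being well above background. Without thymus 1, none of the 3 members was called in either tissue, but the filter then kept 40717 features against 27706. The brain ratios did not change, at -3.90 for Xlr4b, -0.98 for Xlr3c and -4.10 for Xlr. With the tested features held fixed, all 3 were called in brain, while Xlr4b and Xlr3c were not called in thymus. Without thymus 2, Xlr4b and Xlr3c were no longer called in thymus.

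**Figure D4:**
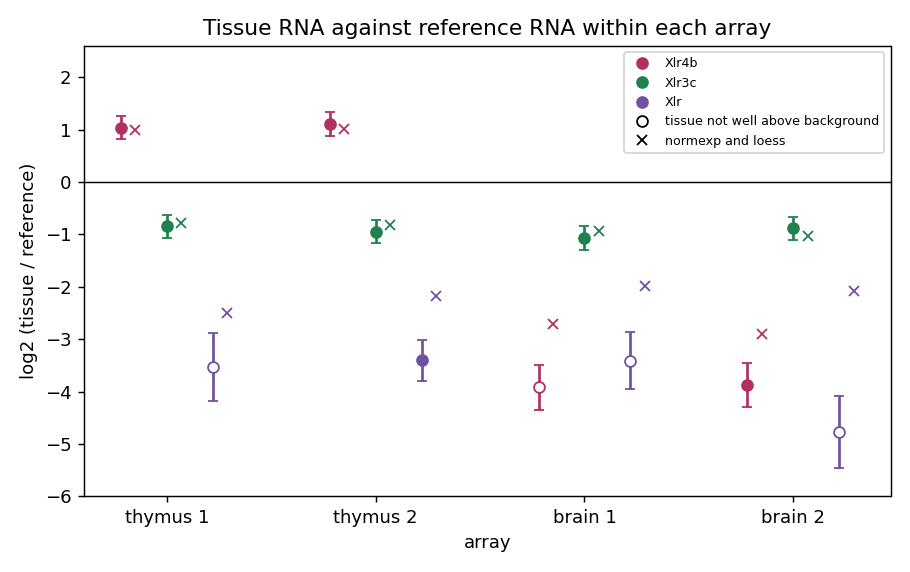
Log2 ratio of tissue to reference RNA on each array for the 3 members, with bars for the scanner error estimate of the ratio and crosses for the ratio after normexp and loess. By the points, Xlr4b lies above 0 in thymus, at 1.04 and 1.11, and below it in brain. Xlr3c points lie between -1.07 and -0.84 on all arrays. Xlr points, open where the tissue was not well above background, lie below -3. The Xlr crosses lie higher, between -2.51 and -1.98.

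The brain minus thymus differences of Xlr4b and Xlr3c, the 2 members tested between tissues, lay far apart, which is given as a description. The level of a probe cannot be set against that of another. Only the change between tissues of the difference between 2 members is therefore read. Xlr4b minus Xlr3c in scaled log2 units was 1.62 in thymus 1 and 1.41 in thymus 2, but -3.16 in brain 1 and -3.37 in brain 2. The brain minus thymus difference of Xlr4b minus that of Xlr3c was -4.77 log2 units, and -4.89 as ratios to the reference. The tissues did not overlap in this measure. The exact permutation test, two-sided, gave p = 0.333 in both measures. This is the smallest p that 2 against 2 samples allow, so the test could not show a divergence. For Xlr minus Xlr3c the values of the tissues overlapped, from -6.61 to -4.97 in brain and from -5.65 to -5.01 in thymus, with an exact permutation p of 1. Since 3 of the 4 Xlr tissue readings were not well above background, these values say little about Xlr.

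The likeness of other probes was measured as the Euclidean distance between profiles over 8 readings, the tissue and reference channels of the 4 arrays, after each profile had been centred. Of 41530 other names with all readings, the nearest to Xlr4b was the unnamed probe TB3625, at 0.322 log2 units. Its brain minus thymus difference was -4.95, a likeness that follows from the choice, since the distance uses the same tissue readings. Among the 13 genes with a symbol the nearest to Xlr4b were Dnmt3a, a DNA methyltransferase that sets new marks, at 4.24, and Dnmt3l, its cofactor, at 4.60, with 3473 names closer than Dnmt3a. For Xlr3c the nearest named genes were Dnmt3l, at 0.474, and Zfp36, which binds mRNAs and speeds their decay, at 1.48. Of all names, 158 were closer to Xlr3c than Dnmt3l and 9732 closer than Zfp36. For Xlr the nearest named genes were Ptgs2, the inducible cyclooxygenase, at 1.13, with 13 names closer, and Xlr3c at 4.25, with 2519 closer. These distances rest on Xlr readings of which 3 of 4 in tissue were not well above background, and Ptgs2 was above it in 1 thymus sample and no brain sample, so their order is uncertain. Of all names the probe X07967.1, to which the tables used here give no gene, was the second nearest to Xlr, at 0.619, and whether it measures Xlr or a relative was not settled here.

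Of 16 genes listed for the Xlr and SYCP3 families, 4 were named on the array, the 3 members and Sycp3 on chromosome 10. Sycp3, the meiotic protein that the family resembles, was not tested, as it was well above background in 1 sample of each tissue, both labelled with Cy5, and in no reference channel. Scaled Sycp3 signals were -3.51 and -2.86 in the thymus samples and -3.96 and -3.09 in the brain samples, numbered as above. Both Cy5 samples were higher than both Cy3 samples. The other 12, among them Xlr3a, Xlr3b, Xlr4a and Xlr4c, were not matched to a probe name. Of the 14 probes named by a RefSeq NM accession, 13 were paired with a symbol, and whether the remaining one belongs to the family was not settled here.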

How the data were processed

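The authors deposited scanner intensity values. These come from Agilent Feature Extraction 10.5.1.1, as the submitters' processing notes name it. Background subtraction, spatial detrending and linear and lowess dye normalization within each array are recorded per the file headers. No scaling between arrays is recorded there. The scanner files also hold a deposited log10 ratio of red over green per spot. A value table deposited by the authors is in log2 units, and its values equal the log2 processed signal of the tissue channel up to a constant, within 0.001 for 100% of probes.

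Here the channel of each sample was taken from its labelled dye. Control spots and outlier-flagged spots were left out, spots of a probe were averaged as log2 signals, and the 75th percentile of 41821 probes was subtracted. Tests between tissues kept probes that carried the well-above-background flag in both thymus or both brain samples. Ratio tests kept these and also any probe with that flag in the reference on all 4 arrays. Of several probes with 1 name, that with the highest mean was used. R 4.3.3 and limma 3.58.1 (lmFit, eBayes, two-sided) were used with p-values adjusted by Benjamini-Hochberg and called under 0.05. The analysis was tested on simulated data. Residual degrees of freedom were 2, with 4.98 prior ones between tissues and 3.48 for ratios. Ratios against 0 leave out the spread of the reference itself. The labels call the samples biological replicates without naming animals, and replicate number equals dye, so p-values rest on a spread that holds dye and sample together. The number of arrays limits the precision. Of 41819 names, 13 had a gene symbol through the RefSeq table. Promoter windows were aligned with Biopython 1.88, with free end gaps.

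The members, gene lists, motifs and comparisons were chosen with earlier results of these data known. Genes to be named were the members, listed relatives on the array and, for each member, the nearest genes with a symbol and the nearest unnamed probes, of which 2 are printed. The files name no genome build.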

Additional observations from a re-analysis of the deposited data

Results flagged for a closer look

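Xlr4b differed between tissues in its ratio to the reference RNA. It was above the reference on both thymus arrays and below it on both brain arrays, and the difference of the log2 ratios, brain minus thymus, was -4.97 with a limma adjusted p of 0.000299. With normexp and loess the difference was -3.81. One of the brain readings behind this value was not well above background.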

How the results depend on the processing

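Leaving out samples with the tested features held fixed was chosen after seeing the data. The files hold no mean signal, so normexp used pixel medians. Xlr4b kept its call between tissues in all alternatives that tested it, from -5.09 to -3.81 with adjusted p up to 0.0123. The filter that requires all 4 samples leaves it untested. Xlr3c passed the threshold in none, from -0.31 to -0.08. Xlr, not tested as reported at -0.62, turned to 0.638 with normexp and to 0.307 with normexp and loess, and with samples left out it ran from -1.38 to 0.144; the cause was not tested.

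Between tissues 9003 features were called, 4975 with no filter on dim probes (more features tested), and 2390 to 9023 with samples left out, lowest without thymus 1 and 3373 without brain 1. With the tested features held fixed these were 6605 to 9039. The replicate block, where the number is also the dye, gave 10236 calls, 8965 of them shared, and changed no call of a member; replicate differences of the tissues correlated at 0.257 across features, and the labels give no shared animal. Against the reference, calls ran with samples left out from 0 to 13167 in brain and from 0 to 8952 in thymus (1636 and 2055 without thymus 1 or 2 and 9059 at most with features held fixed), where 4250 were called with no filter (more features tested).

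With samples left out, Xlr4b minus reference ran from -3.92 to -3.88 in brain and from 1.04 to 1.11 in thymus. In the same order, Xlr3c ran from -1.07 to -0.89 and from -0.95 to -0.84. The Xlr ratio of the scanner software, which rests mostly on background readings, ran from -4.78 to -3.41 and from -3.53 to -3.40. With the tested features held fixed and without thymus 1, all 3 were called in brain, with adjusted p of 0.00134, 0.0186 and 0.00338, and in thymus Xlr was called at 0.0467 while Xlr4b and Xlr3c were not, at 0.0923 and 0.132. Where 1 sample is left in a tissue, its spread is taken from the other tissue. Scan day was not run as a block, since no day holds both tissues and its correlation could not be estimated. Signal near the background limits Xlr in both tissues and Xlr4b in brain.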
